A study of Mus musculus with 18 samples.

Results

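The genes described here encode the phagocyte NADPH oxidase and the proton channel that works beside it: Cybb, Cyba, Ncf1, Ncf4, Rac1, Rac2 and Hvcn1. They were found by their symbols in the deposited table of normalised reads, taking the row with the highest mean where a symbol had several, and are 7 of the 16221 genes of the table and of the 12014 genes tested. Each had 1 row except Hvcn1, whose rows held identical values, and all 7 were above the filter on low values in all 18 libraries. The phagocyte oxidase moves electrons from NADPH inside the cell to oxygen in the phagosome or outside, where superoxide forms, and phagocytes use it to kill bacteria and fungi and to signal. Its membrane core is a dimer of the catalytic subunit gp91phox (Cybb, also called NOX2) and p22phox (Cyba), which stay inactive until cytosolic subunits, among them p47phox (Ncf1) and p40phox (Ncf4), and a Rac GTPase join them. The voltage-gated proton channel HV1 (Hvcn1) lets protons follow the electrons and so offsets the charge that the oxidase moves, and loss of the core or cytosolic subunits causes chronic granulomatous disease in humans.

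The libraries, 2 for each of 9 populations, were made from polyA RNA of cells sorted from C57BL/6 mice. The sample titles place brain microglia and macrophages from the peritoneum, small intestine (ileum) and large intestine (colon) in experiment 1. They place spleen red pulp macrophages, liver Kupffer cells, lung macrophages, and bone marrow monocytes and neutrophils in experiment 2. The comparison addressed here is how strongly each population expressed the parts of the oxidase. Populations were tested against others of their own experiment, because across experiments a difference between populations and a difference between experiments cannot be told apart. Whether the replicates came from separate animals is not stated, and each p measures only the spread between these samples. In sorted bulk samples fewer cells of a type and less RNA per cell cannot be told apart.

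The libraries held 588856 to 1581363 reads in genes, and a gene with 0 reads has an upper limit (3 reads, counting error only) of 1.69 to 6.59 normalised reads. The deposited totals stood apart in neutrophils, at 1818206 and 1883301 normalised reads against 938759 to 1215278 in the other 16 libraries. The marker lists of microglia, peritoneal, spleen red pulp and Kupffer macrophages each had their highest sums in the population they are named for. The gut list was higher in microglia (7379 to 8724 normalised reads, with Il10 and Cd163 at 0) than in the intestinal populations (1079 to 1464, with all 4 genes above 0). The lung list reached 5943 to 9665 in lung macrophages and 11551 to 11933 in neutrophils, and the monocyte list 4063 to 4391 in monocytes and 4301 to 4589 in neutrophils. The 4 measured macrophage markers summed to 994 to 1037 in lung macrophages, below monocytes (1193 to 1318) and below the other macrophages (3416 to 10157).

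The core genes Cybb and Cyba are shown by the sequence around their transcription starts, because they encode the dimer's partners and their levels diverged most in microglia. Each line is the RefSeq sequence, 5′ to 3′, of build GRCm38.p6, from 250 bases before to 50 bases after the start, on the minus strand, at chrX:9469275-9469574 for Cybb and chr8:122432891-122433190 for Cyba; the reads themselves were aligned to another build, mm9. Capitals mark matches to GAGGAA, a PU box bound by ETS factors such as PU.1, and to an ETS-IRF composite (GGAA, then any 2 bases, then GAAA), searched on both strands.
Cybb promoter: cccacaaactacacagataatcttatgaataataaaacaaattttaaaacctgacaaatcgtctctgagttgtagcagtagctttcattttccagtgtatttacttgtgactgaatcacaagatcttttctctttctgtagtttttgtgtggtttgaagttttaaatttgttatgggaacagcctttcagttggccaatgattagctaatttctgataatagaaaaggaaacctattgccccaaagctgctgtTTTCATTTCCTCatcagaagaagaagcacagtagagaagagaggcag
Cyba promoter: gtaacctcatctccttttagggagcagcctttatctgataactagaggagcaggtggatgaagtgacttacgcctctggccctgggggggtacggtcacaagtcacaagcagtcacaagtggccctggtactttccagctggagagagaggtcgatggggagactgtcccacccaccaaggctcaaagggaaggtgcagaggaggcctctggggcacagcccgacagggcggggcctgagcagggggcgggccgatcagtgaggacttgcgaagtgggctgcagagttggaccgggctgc
In Cybb both motifs matched on the opposite strand and overlapped, the PU box 9 to 14 bases and the composite 3 to 12 bases after the start. Neither motif matched in the windows of Cyba or Ncf1, the other member with an entry. Of 32851 mouse promoters of 300 bases, 28.3% held the PU box and 2.72% held the composite, so the PU box is common. PU.1 and IRF8 are known activators of human CYBB.

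Cybb had the widest range of the 7 genes, from 7.52 normalised reads in 1 microglia library to 3871 in 1 neutrophil library. In experiment 1 it was at 7.52 and 16.7 normalised reads in microglia, in peritoneal macrophages at 1019 and 1419.9, at 518 and 584 in small intestine macrophages, and at 448 and 495 in large intestine macrophages. Both microglia libraries lay far below every other library of the series. Their values rest on 8 reads (95% Poisson interval 3.45 to 15.8 reads) and 18 reads (10.7 to 28.4 reads), counting error only. In experiment 2 Cybb was at 3861 and 3871 in neutrophils, at 1363 and 971 in monocytes, at 1222 and 1532 in lung macrophages, at 881 and 795 in Kupffer cells, and at 426 and 368 in spleen red pulp macrophages. Neutrophils were highest with no overlap, spleen was the lowest of experiment 2, and monocytes and lung macrophages overlapped. The neutrophil mean was 319 times that of microglia, and among macrophages the lung mean was 114 times that of microglia. These folds rested on the microglia libraries: without replicate 2 they were 514 and 183 times, and without replicate 1 they were 232 and 82.5 times.

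The partner subunit Cyba, which stabilises gp91phox and docks p47phox, varied far less. It was at 1158 and 950.2 normalised reads in microglia, 1583 and 1459.6 in the peritoneum, 1008 and 1358 in small intestine and 1368 and 1691 in large intestine macrophages. The microglia values overlapped those of the small intestine. In experiment 2 Cyba was at 5543 and 5629 in neutrophils, 1813 and 2056 in monocytes, 2393 and 2609 in lung macrophages, 2725 and 1265 in Kupffer cells, and 2008 and 1874 in spleen macrophages. Neutrophils were again highest, and the Kupffer libraries differed from each other by more than the other macrophage pairs did. The highest mean of Cyba was 5.30 times the lowest, and 2.37 times among the macrophages.

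**Figure D1:**
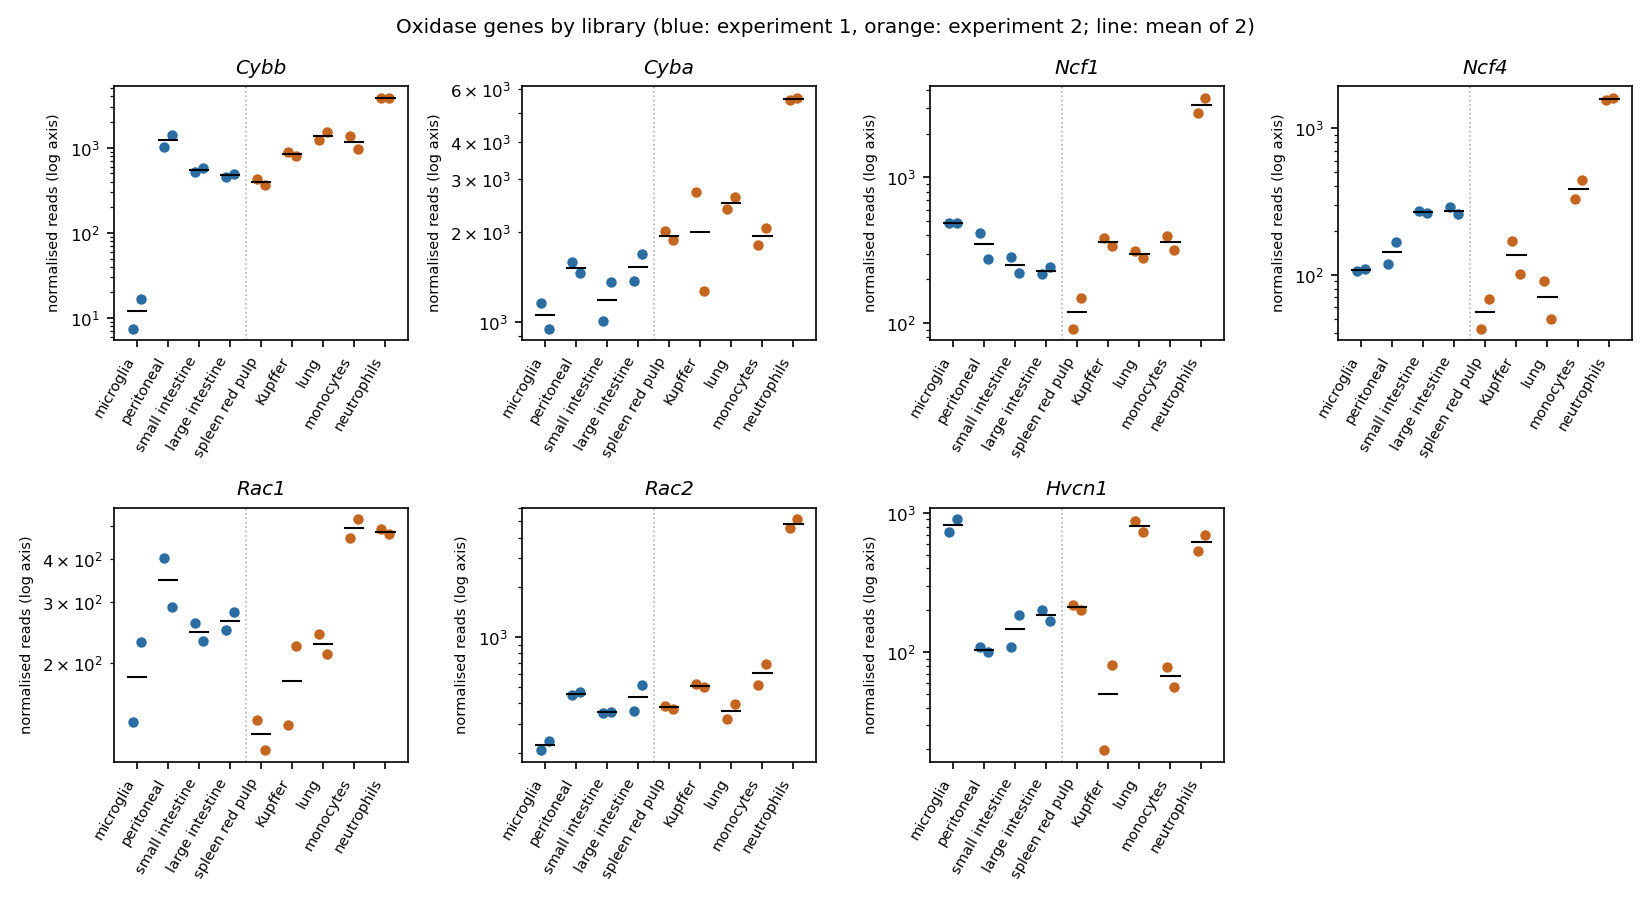
Normalised reads of the 7 genes (log axis) in each library of the 9 populations; points are libraries and the short lines are means of 2. Cybb in microglia (7.52 and 16.7) sits below all other libraries, while Cyba spans 950.2 to 5629 over the series.

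Ncf1 encodes the organiser that carries the cytosolic complex to the membrane when phosphorylated. It was at 2769 and 3532 normalised reads in neutrophils, 399 and 316 in monocytes, 381 and 339.8 in Kupffer cells, 313 and 280.4 in lung macrophages, and 91.7 and 148 in spleen macrophages. Neutrophils were highest and spleen macrophages lowest of these 5 populations, with no overlap with the rest. In experiment 1 Ncf1 was at 489 and 485 in microglia, 417 and 277 in the peritoneum, 284 and 220.4 in the small intestine, and 216 and 242 in the large intestine. Thus the microglia libraries, lowest of the series for Cybb, were the highest of experiment 1 for Ncf1.

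Ncf4 encodes the subunit whose PX domain binds a phosphoinositide of the phagosome membrane. Its values were 1559.8 and 1616 normalised reads in neutrophils, 329.9 and 442 in monocytes, 170.5 and 101 in Kupffer cells, 91.0 and 49.8 in lung macrophages, and 42.9 and 68.7 in spleen macrophages. Neutrophils and then monocytes lay above all 3 macrophage populations of that experiment, while lung and spleen overlapped. In experiment 1 Ncf4 was at 288 and 258 in the large intestine, 273 and 265 in the small intestine, 118 and 167 in peritoneal macrophages, and 105 and 109 in microglia. Both intestinal populations lay above the other 2.

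Rac2, the Rac GTPase made mainly in blood cells, was at 4544 and 5172 normalised reads in neutrophils and at 517 and 689.7 in monocytes. In macrophages of experiment 2 it was at 518 and 497 in Kupffer cells, 385 and 368 in spleen and 322 and 394 in lung. In experiment 1 it was at 449 and 464 in peritoneal macrophages, 357 and 511 in the large intestine, 349 and 353 in the small intestine, and 208 and 236 in microglia. Neutrophils stood apart above all others and microglia lay below all others. Rac1, the GTPase present in most cell types, had the narrowest range, 3.97-fold between the highest and lowest means. It was at 489 and 473 in neutrophils, 461 and 523 in monocytes, 242 and 212 in lung macrophages, 132 and 223 in Kupffer cells, and 136 and 112 in spleen macrophages. Neutrophils and monocytes overlapped and lay above the macrophages. In experiment 1 Rac1 was at 403 and 290.4 in peritoneal macrophages, 249 and 281 in the large intestine, 261 and 231 in the small intestine, and 134 and 229.7 in microglia, with the 2 intestinal populations overlapping.

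The Hvcn1 proton channel followed another order. It was at 737 and 906 normalised reads in microglia, 108 and 100.2 in the peritoneum, 108 and 185 in the small intestine, and 202 and 168 in the large intestine. In experiment 2 it was at 879 and 734 in lung macrophages, 537 and 699 in neutrophils, 218 and 202 in spleen macrophages, 78.4 and 56.0 in monocytes, and 19.8 and 80.8 in Kupffer cells. Microglia and lung macrophages thus lay above all other populations, neutrophils included, and Kupffer cells had the lowest mean. The means of Hvcn1 spanned 16.3-fold, from Kupffer cells to microglia. That span rested on the Kupffer libraries: without replicate 2 it was 41.6-fold, and without replicate 1 it was 12.2-fold over all populations (monocytes lowest) and 10.2-fold among macrophages.

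Ratios of the genes within a library were read across populations, not as a comparison of the levels of 2 genes. The ratio of Ncf1 to Cybb was 29.1 and 65.1 in microglia and 0.183 to 0.913 in the other 16 libraries. That of Cyba to Cybb was 56.9 and 154 in microglia, 4.72 and 5.09 in the spleen, and 1.03 to 3.42 elsewhere. For Rac2 to Rac1 it was 9.29 and 10.9 in neutrophils, 2.23 to 3.92 in spleen and Kupffer macrophages, and 1.03 to 1.86 in the other 12 libraries. The ratio of Ncf4 to Ncf1 was highest in the intestinal macrophages (0.963 to 1.33) and monocytes (0.826 and 1.40), and was 0.178 to 0.603 elsewhere.

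**Figure D2:**
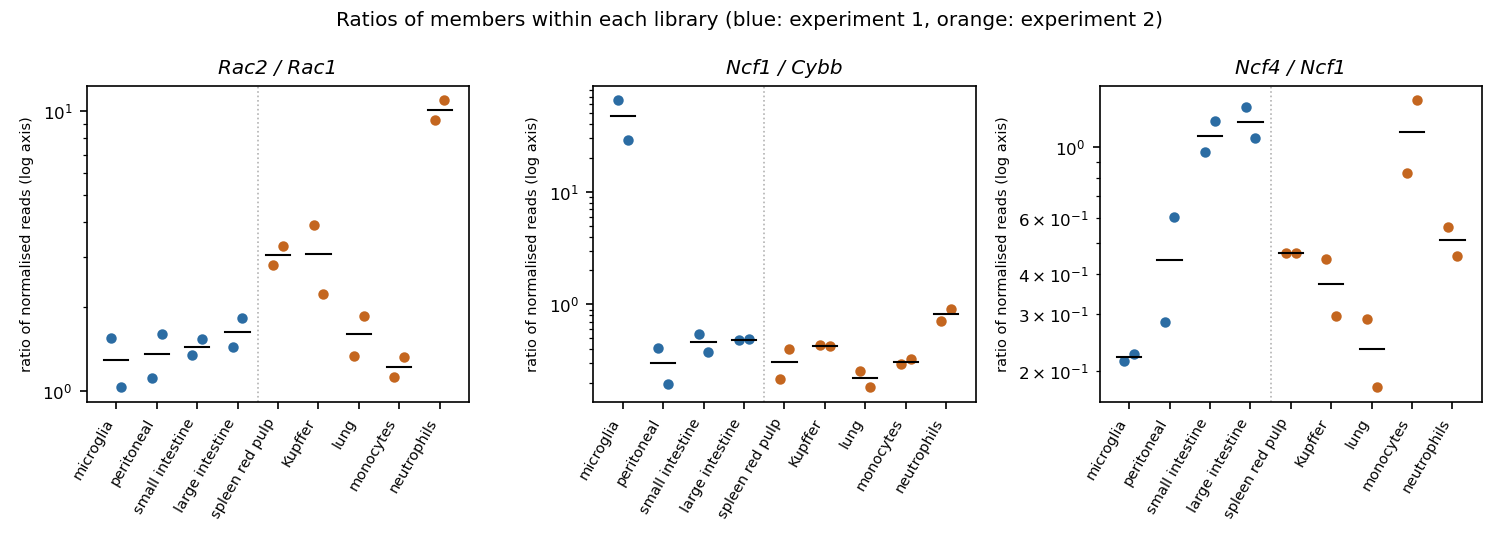
Ratios of normalised reads of Rac2 to Rac1, Ncf1 to Cybb and Ncf4 to Ncf1 within each library (log axis), by population; points are libraries and short lines are means of 2. Microglia stand apart for Ncf1 over Cybb (29.1 and 65.1) and neutrophils for Rac2 over Rac1 (9.29 and 10.9).

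Differences among populations were tested with limma on log2 values, over all tested genes, with Benjamini-Hochberg adjustment. Among all 9 populations, 7 of 7 genes passed at an adjusted p under 0.05, where 66.8% of tested genes did. Among the 4 populations of experiment 1, 5 of 7 passed (background 35.3%), the exceptions being Cyba (adjusted p = 0.344) and Rac1 (adjusted p = 0.0906). Among the 5 of experiment 2, 7 of 7 passed (background 51.2%). Leaving out 1 library at a time moved the count for experiment 1 between 3 and 6, and without a mean-variance trend it was 3. Pairs of populations within an experiment, 16 for each gene, were called at an adjusted p under 0.05 and a log2 difference of at least 1: 12 for Cybb, 11 for Hvcn1, 10 for Ncf4, 8 for Ncf1, 6 for Rac1, 5 for Rac2 and 4 for Cyba. Over all tested genes 20% of such pairs were called. In experiment 1, with 6 pairs, Cyba and Rac1 had 0 called, so their 4 and 6 all lay among the 10 pairs of experiment 2. Among those of Cyba was neutrophils against monocytes, a call that depended on the scaling, as given below. The pair counts are given with the deposited scaling only.

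Microglia had 1 gene higher and 2 lower than the mean of the other 3 populations of experiment 1, where 10.7% and 15.1% of tested genes were called. Cybb fell by 5.78 ± 0.25 on the log2 scale (SE, adjusted p = 9.56e-12, limma). Hvcn1 rose by 2.54 ± 0.35 (adjusted p = 2.91e-05) and Ncf4 fell by 1.01 ± 0.27 (adjusted p = 0.00877). The call of Ncf4 sat at the threshold of 1 and was lost with a larger pseudocount (log2 difference -0.99), without microglia replicate 1 (adjusted p = 0.0771) or replicate 2 (0.0666), and, at log2 differences of -0.93 and -0.99, without peritoneal replicate 2 or large intestine replicate 2. Ncf1 (0.85, adjusted p = 0.00878), Rac2 (-0.88, adjusted p = 0.00265), Rac1 (-0.67, adjusted p = 0.0465) and Cyba (-0.41, adjusted p = 0.231) did not reach the fold threshold. Without microglia replicate 2 Rac1 did, at -1.06 (adjusted p = 0.0232). The median of the 7 log2 differences was -0.67, beside -0.06 over all tested genes. In microglia the neutrophil markers summed to 233 to 262 normalised reads, with Ltf, Camp, Retnlg and Cxcr2 at 0. The dendritic cell markers summed to 910.02 and 916 there, nearly all of it Siglech (907 and 901), and Xcr1 was at 0. The B cell markers summed to 199 to 271 in microglia, with Cd79a, Ms4a1 and Pax5 at 0, and the T and NK cell markers were at 0. The part of these markers in the result was not tested.

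Peritoneal macrophages had Cybb higher by 3.03 ± 0.25 (adjusted p = 5.38e-08) and Hvcn1 lower at -1.40 ± 0.35 (adjusted p = 0.00724), where 7.02% of tested genes were called higher and 14.4% lower. The small intestine had 1 of 7 genes higher and 0 lower (background 6.24% and 1.81%), which was Cybb at 1.52 ± 0.25 (adjusted p = 5.33e-04). The large intestine had the same count (background 7.1% and 2.11%), with Cybb at 1.23 ± 0.25 (adjusted p = 0.00263). With the replicate number of the titles as a block, Cybb was not called in the small intestine (1.39). Microglia stand on the other side of all 3 comparisons, so the pairs without them are given too. Cybb was higher in peritoneal than in large intestine macrophages by 1.35 ± 0.30 (adjusted p = 0.0034) and than in small intestine macrophages by 1.13 ± 0.30 (adjusted p = 0.0128). The 2 intestinal populations differed by 0.22 ± 0.30 in the small intestine's favour (adjusted p = 0.99). Hvcn1 had means of 821 in microglia, 185 in the large intestine, 146 in the small intestine and 104 in the peritoneum. It was called in 3 of the 6 pairs of experiment 1. Small intestine macrophages exceeded peritoneal ones by 0.44 ± 0.43 (adjusted p = 0.567), which was not called. Cybb was no longer called in the large intestine without its replicate 3 (adjusted p = 0.0663), nor Hvcn1 in the peritoneum without either of its libraries (adjusted p = 0.0608 and 0.0743). The 6 B cell markers summed to 18.3 to 21.7 normalised reads in the peritoneum, with Cd22 at 0, against 118 to 468 in the other 3 populations. The neutrophil markers summed to 440.0 to 748 in the intestinal populations against 173 to 262 in the other 2, and the part of either list in these results was not tested.

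In experiment 2 each macrophage population was compared with the mean of the other 2. Spleen red pulp macrophages had 2 of 7 genes lower and 0 higher (background 4.87% and 5.74%): Cybb fell by 1.43 ± 0.26 (adjusted p = 0.00142) and Ncf1 fell by 1.48 ± 0.24 (adjusted p = 5.48e-04). With the replicate number as a block, Cybb was not called there (-1.39). The 8 neutrophil markers summed to 1628 and 2829 normalised reads in the spleen libraries and 1652 and 3235 in the lung, against 223831 to 280039 in neutrophils, and their part in these results was not tested. Lung macrophages had 2 of 7 genes higher and 0 lower (background 7.9% and 10.2%). Hvcn1 was higher by 3.11 ± 0.38 (adjusted p = 6.48e-06) and Cybb by 1.25 ± 0.26 (adjusted p = 0.00182), the latter lost without lung replicate 2 (adjusted p = 0.0537). The Cybb means were 1377 in lung, 838 in Kupffer and 397 in spleen macrophages, so the low spleen values enter the lung comparison too. For Kupffer cells Cybb was not called (0.18 ± 0.26, adjusted p = 0.752). The 3 eosinophil markers summed to 197 to 235 normalised reads in the lung and 1.99 to 11.7 in spleen and Kupffer macrophages. In the lung nearly all of that was Siglecf (197 and 229), which is also in the lung list, while Epx was at 0.632 and 0 and Prg2 at 0 and 5.53. The T and NK cell markers summed to 36.7 to 97.4 in the lung against 18.7 to 45.3 in the other 2, and their part was not tested.

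Kupffer cells had 1 gene higher and 1 lower (background 5.48% and 4.55%). Hvcn1 fell by 3.32 ± 0.38 (adjusted p = 1.08e-05), and against spleen macrophages alone the difference was 2.35 ± 0.43 (adjusted p = 0.0023). Ncf4 was higher by 1.10 ± 0.29 (adjusted p = 0.017), but not without Kupffer replicate 1 (0.73, adjusted p = 0.185), without spleen replicate 1 (adjusted p = 0.0671), without lung replicate 2 (adjusted p = 0.0641), without a mean-variance trend (adjusted p = 0.0787) or with experiment 2 fitted alone (adjusted p = 0.0544). Nor was Ncf4 called with the replicate number as a block (0.85). Kupffer replicate 1 had the higher Ncf4 and Cyba and the lower Hvcn1 and Rac1, while Cybb, Ncf1 and Rac2 were only slightly higher in it. Its neutrophil markers summed to 2187 normalised reads against 274 in replicate 2 and 223831 to 280039 in neutrophils. The part of this in the values was not tested. Ncf1 missed the fold threshold in Kupffer cells at 0.95 ± 0.24 (adjusted p = 0.0151) and passed it under quantile normalization (1.05), without spleen replicate 2 (1.12) or without Kupffer replicate 2 (1.03).

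Neutrophils had 6 of 7 genes higher than monocytes and 0 lower, where 11.3% of tested genes were called higher and 12.2% lower. Hvcn1 was higher by 3.19 ± 0.43, Ncf1 by 3.13 ± 0.28 and Rac2 by 3.02 ± 0.24 (adjusted p = 2.76e-05, 2.94e-07 and 9.93e-08). Ncf4 was higher by 2.05 ± 0.33, Cybb by 1.75 ± 0.30 and Cyba by 1.53 ± 0.30 (adjusted p = 1.60e-04, 3.06e-04 and 9.56e-04). Rac1 differed by -0.03 ± 0.30, with a 95% interval from -0.71 to 0.65 that uses the 9 residual degrees of freedom. The calls of Cybb and Cyba depended on the scaling: with equal library totals, which shift the median of all genes by -0.65, they were 0.85 and 0.63 (1.49 and 1.28 above that median of all genes), and under quantile normalization 0.68 and 0.37. The other 4 calls held under both scalings.

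Against the mean of the 3 macrophage populations of experiment 2, neutrophils had 7 of 7 genes higher and 0 lower (background 15.8% and 22.9%). The differences were 4.32 ± 0.27 for Ncf4, 3.75 ± 0.23 for Ncf1, 3.57 ± 0.20 for Rac2, 2.33 ± 0.25 for Cybb, 1.68 ± 0.35 for Hvcn1, 1.51 ± 0.24 for Rac1 and 1.42 ± 0.25 for Cyba, with adjusted p from 2.60e-10 for Rac2 to 8.95e-04 for Hvcn1. The median over the 7 was 2.33, beside -0.26 over all tested genes. With equal library totals 4 of 7 stayed called, and Hvcn1 (0.82), Rac1 (0.65) and Cyba (0.57) did not; these lay 1.71, 1.53 and 1.45 above the median of all genes, which moved by -0.62. Under quantile normalization Cyba (0.16) and Rac1 (0.92) were not called. For Hvcn1 the 3 macrophage populations differed widely: neutrophils were above spleen (1.54 ± 0.43, adjusted p = 0.0096) and Kupffer cells (3.89 ± 0.43), and differed from lung by -0.39 ± 0.43 (adjusted p = 0.53).

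Monocytes had 2 of 7 genes higher and 1 lower than the mean of the same 3 macrophage populations (background 7.37% and 12.1%). Ncf4 was higher by 2.27 ± 0.27 (adjusted p = 7.30e-06) and Rac1 by 1.54 ± 0.24 (adjusted p = 1.70e-04). Hvcn1 was lower, at -1.51 ± 0.35 (adjusted p = 0.0047), which was not called without monocyte replicate 2 (adjusted p = 0.117). The 3 macrophage populations differed widely in Hvcn1, with means of 807 in lung, 210 in spleen and 50.3 in Kupffer cells. The monocyte mean (67.2) lay below the first 2 and above Kupffer cells, by 0.71 ± 0.43 (adjusted p = 0.295, not called). The B cell markers summed to 50.3 to 56.6 normalised reads in monocytes, with Ms4a1 and Pax5 at 0, against 211 to 396 in the 3 macrophage populations. The T and NK cell markers summed to 3.07 to 5.97, with Cd3g, Lck and Ncr1 at 0, against 18.7 to 97.4, and the part of either list was not tested. These comparisons share the macrophage libraries with those of neutrophils. Cybb (0.58), Cyba (-0.11), Ncf1 (0.62) and Rac2 (0.55) were not called.

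**Figure D3:**
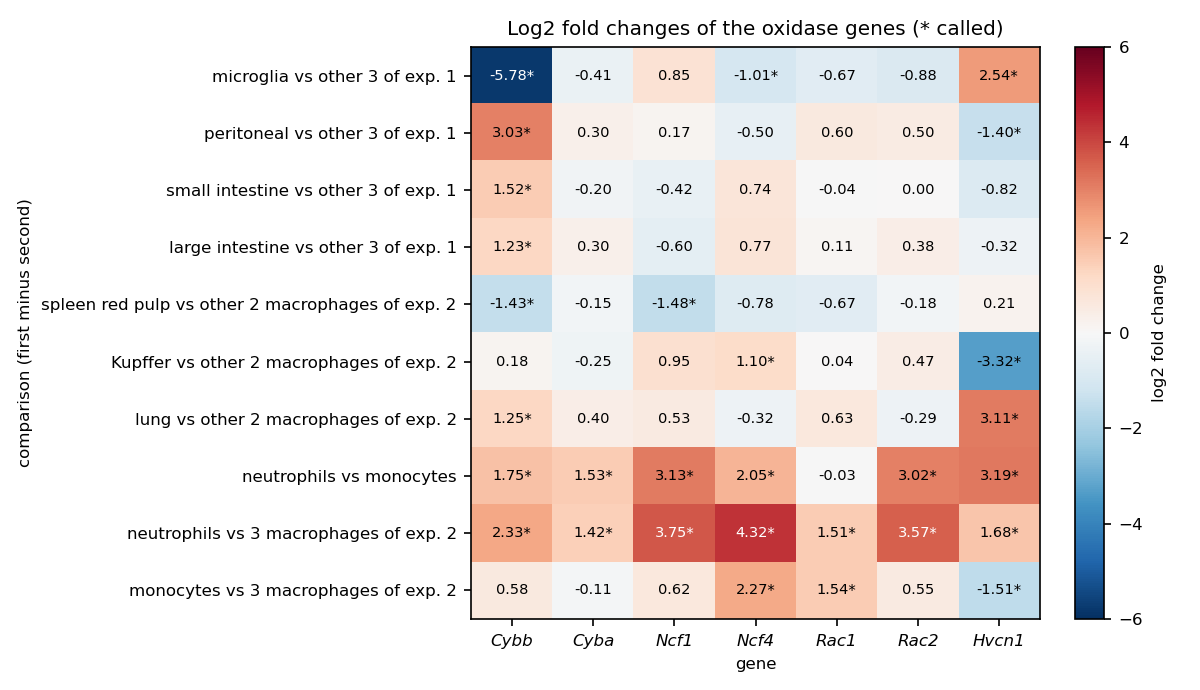
Log2 differences (first minus second, colour and number) of the 7 genes, in columns, for the 10 comparisons within an experiment, in rows; a star marks a gene that passed an adjusted p of 0.05 and a log2 difference of 1 (limma). Cybb in microglia (-5.78) is farthest from 0, and both neutrophil rows are starred for every gene except Rac1 against monocytes (-0.03), although the stars of Cybb and Cyba against monocytes and of Hvcn1, Rac1 and Cyba against macrophages depend on the scaling.

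Ordered by mean level, most pairs of neighbouring populations were not called. Of the 56 neighbouring pairs (8 for each gene), 7 were called, where 3.24% of such pairs were over all tested genes, and 26 of the 56 join different experiments. Cybb stepped down from neutrophils to lung macrophages (1.5, adjusted p = 7.85e-04) and from spleen macrophages to microglia (5.00, adjusted p = 8.78e-10, different experiments). Between those steps lay, in order, peritoneal macrophages, monocytes, Kupffer cells, small intestine and large intestine macrophages, with no called neighbour. Cyba had 1 step, from neutrophils to lung (1.16, adjusted p = 0.00571), and so had Ncf1, from neutrophils to microglia (2.68, adjusted p = 3.72e-07, different experiments). Between large intestine and spleen macrophages Ncf1 differed by 0.97 (adjusted p = 0.0187, different experiments), without overlap but under the fold threshold. Ncf4 and Rac2 stepped from neutrophils to monocytes, by the values given above. For Hvcn1 the step fell after microglia, lung macrophages and neutrophils, between neutrophils and spleen (1.54), and for Rac1 there was none. The steps from neutrophils are given with the deposited scaling only. Under it neutrophil totals were 1818206 and 1883301, against 938759 to 1215278 in the other libraries. Other neutrophil calls of Cybb, Cyba and Hvcn1 depended on the scaling, as given above.

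The genes most like each member over all 18 libraries were ranked by Pearson's r of log2 values, a description over libraries that share populations and scaling. Cybb was most like the inhibitory receptor gene Lilrb4a (0.964), its near-identical copy Lilr4b (0.960) and Unc119 (0.950), and without neutrophils, over 16 libraries, r was 0.969, 0.955 and 0.940. Microglia had the lowest means of all 4 genes: 12.1 for Cybb, 3.72 for Lilrb4a, 0.467 for Lilr4b and 0 for Unc119. Values of r without microglia were not computed. How reads that match both Lilrb4a and Lilr4b were shared out is not known. Cyba was most like Gpsm3 (0.947), Atp6v1e1 (0.942), a subunit of the vacuolar proton pump, and Retnlg (0.939). Without neutrophils these were 0.848, 0.901 and 0.827. Ncf1 was most like Egfl7 (0.945), Cebpd (0.940) and Hacd2 (0.918), and without neutrophils r was 0.736, 0.783 and 0.707. Ncf4 was most like Pgk1 (0.904), Ppm1m (0.902) and Cldn15 (0.897), and without neutrophils r was 0.748, 0.744 and 0.810. Cldn15 was near the floor in many populations, with means of 0 in microglia and spleen macrophages and 0.553 to 1.08 in lung, Kupffer and peritoneal macrophages. Among the genes most like Rac2 were Mrgpra2b (0.946) and Was (0.945), the latter encoding the Wiskott-Aldrich protein, and without neutrophils r was 0.332 and 0.557. Rac1 was most like Tax1bp1 (0.904), and Hvcn1 most like Jph3 (0.854). Jph3 was near the floor, with population means from 0 to 12.1 normalised reads. Among the members, Ncf1 and Rac2 had r = 0.817 with neutrophils and -0.119 without, and Cybb and Rac2 0.649 with and 0.785 without. Microglia, kept in both, had the lowest means of Cybb and of Rac2.

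Other genes of the pathway were read from lists. Among other subunits and oxidases, Nox1, Nox3, Nox4, Duox2 and Duoxa1 were not analysed here. Noxa1 and Noxo1, the activator and organiser of the related colon oxidase NOX1, rose in large intestine macrophages by 3.69 ± 0.49 (adjusted p = 5.46e-05) and 2.43 ± 0.70 (adjusted p = 0.0314). Noxa1 was at 31.8 and 21.5 normalised reads there, at 10.7 and 3.98 in the small intestine, and at 0 to 1.04 in the other 14 libraries. Noxo1 was at 38.9 and 24.4 in the large intestine, 28.1 and 9.96 in the small intestine, and 0 to 7.30 elsewhere, so its intestinal libraries overlapped. The large intestine was set against a mean that joins the small intestine with microglia and peritoneal macrophages. A test of large against small intestine is not given for either gene. Cybc1, a chaperone of gp91phox, was at 89.3 and 96.4 in microglia and was not called there (0.79 ± 0.30, adjusted p = 0.0563).

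Of 13 regulators of Rac and Rap GTPases, neutrophils had 4 higher and 1 lower than macrophages, where 15.8% of all tested genes were called higher and 22.9% lower (3 and 1 with equal library totals and also under quantile normalization). Arhgdib, a GDP-dissociation inhibitor of blood cells that keeps Rac soluble, rose by 4.09 ± 0.20 (adjusted p = 6.84e-11), to 11163 and 9073 normalised reads against 419 to 861 in the 3 macrophage populations. Rhog, a GTPase upstream of Rac, rose by 1.86 ± 0.25 (adjusted p = 8.76e-06), a call lost under quantile normalization (0.61). In peritoneal macrophages Prex1, an exchange factor for Rac, fell by 2.29 ± 0.25 (adjusted p = 2.11e-06) and Rap1b rose by 1.5 ± 0.23 (adjusted p = 1.08e-04). Arhgdia (-0.02) was not called in neutrophils.

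Of 10 kinases and phospholipases that act on the oxidase, 7 were higher in neutrophils than in macrophages and 0 lower (background 15.8% and 22.9%), with a median log2 difference of 1.22 beside -0.26 over all genes. That count rested on the scaling: it was 2 higher and 1 lower with equal library totals (median 0.38) and 4 higher and 0 lower under quantile normalization (median 0.84). Prkcb, a protein kinase C that phosphorylates p47phox, rose by 2.74 ± 0.34 (adjusted p = 3.05e-06), and Prdx6, a peroxiredoxin with phospholipase activity, by 3.01 ± 0.23 (adjusted p = 1.08e-08). The low lung values of Prkcb, given below, enter the macrophage mean of its comparison and enlarge that difference. Its differences from spleen and Kupffer macrophages alone are not given. Lung macrophages had 5 of the 10 lower and 0 higher (background 10.2% and 7.9%), under both other scalings too. Prkcb was at 7.59 and 6.64 normalised reads in the lung against 162 to 235 in spleen and Kupffer macrophages and fell by 4.62 ± 0.36 (adjusted p = 2.64e-08), and Pik3cd fell by 1.85 ± 0.26 (adjusted p = 3.23e-05). Hvcn1 and Cybb were higher in the lung, as given above.

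Of 7 receptors that trigger the burst, neutrophils had 6 higher and 1 lower than monocytes (background 11.3% and 12.2%), and the same counts against macrophages (background 15.8% and 22.9%). With equal library totals these were 4 and 1, and 3 and 1, and under quantile normalization 4 and 1 in both. Fpr2, a formyl peptide receptor, was at 1651 and 1210.0 normalised reads in neutrophils and 16.9 to 19.6 in monocytes, a rise of 6.20 ± 0.54 (adjusted p = 2.18e-07). Itgam, the alpha chain of complement receptor CR3, rose by 5.68 ± 0.35 against macrophages (adjusted p = 9.40e-10). The receptor that was lower was Fcgr1, the high-affinity IgG receptor, by -4.19 ± 0.30 (adjusted p = 5.62e-09), which also belongs to the macrophage markers. In microglia Fpr1 fell by 3.12 ± 0.40 and Fpr2 fell by 3.86 ± 0.44 (adjusted p = 1.16e-05 and 2.76e-06) while Fcgr1 rose by 1.78 ± 0.30 (adjusted p = 2.46e-04).

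The 6 tested genes of NADPH supply included the pentose phosphate enzymes. In neutrophils 5 rose and 0 fell against macrophages, where 15.8% of all tested genes were called higher and 22.9% lower (4 and 1 with equal library totals, 3 and 0 under quantile normalization), with Tkt at 3.13 ± 0.20 and G6pdx, the first enzyme of that pathway, at 3.11 ± 0.25 (adjusted p = 1.29e-09 and 1.67e-08). In microglia 4 of the 6 fell and 0 rose (background 15.1% and 10.7%), among them Taldo1 by 1.42 ± 0.24 and Tkt by 1.31 ± 0.20 (adjusted p = 1.88e-04 and 8.42e-05). Of 11 genes that handle superoxide and peroxide, 8 fell in microglia and 0 rose (the same background), with a median log2 difference of -1.54 beside -0.06 over all genes. The log2 differences were -2.60 ± 0.24 for Txn1, -2.01 ± 0.20 for Gpx1, -1.76 ± 0.23 for Prdx5 and -1.75 ± 0.24 for Sod1, the cytosolic superoxide dismutase (adjusted p from 2.13e-07 to 1.97e-05). Catalase (Cat, -0.65, adjusted p = 0.157) and Txnrd1 (-0.57, adjusted p = 0.451) were not called. The microglia counts of both lists were the same with equal library totals and under quantile normalization. In neutrophils the second list split, 5 higher and 2 lower than macrophages, against the background of 15.8% and 22.9% (3 and 5 with equal library totals, 3 and 3 under quantile normalization), with Prdx5 at 3.44 ± 0.23 and Sod1 at -2.02 ± 0.24 (adjusted p = 1.75e-09 and 1.69e-06).

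The 4 transcription factors known from work on the human CYBB promoter were all measured. Spi1, which encodes PU.1, was at 213 and 237 normalised reads in microglia and 187 to 238 in the other libraries of experiment 1, a difference of 0.10 ± 0.21 (adjusted p = 0.754), where Cybb fell. Irf8 was higher in microglia by 1.16 ± 0.35 (adjusted p = 0.0168). In neutrophils, where Cybb was highest, Spi1 rose by 1.32 ± 0.21 against macrophages (adjusted p = 6.11e-05; not called with equal library totals, 0.47, or under quantile normalization, 0.68) and Irf8 fell by 3.35 ± 0.35 (adjusted p = 3.79e-07), to 44.1 and 17.6. In spleen macrophages, where Cybb fell, Irf8 rose by 1.95 ± 0.37 (adjusted p = 0.00183), to 757 and 707. Irf1 was not called in microglia (-0.51) or against macrophages in neutrophils (-0.23), nor was Elf1 (0.77 and -0.44). These are RNA levels, and the part of the 4 factors in the levels of Cybb was not tested.

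**Figure D4:**
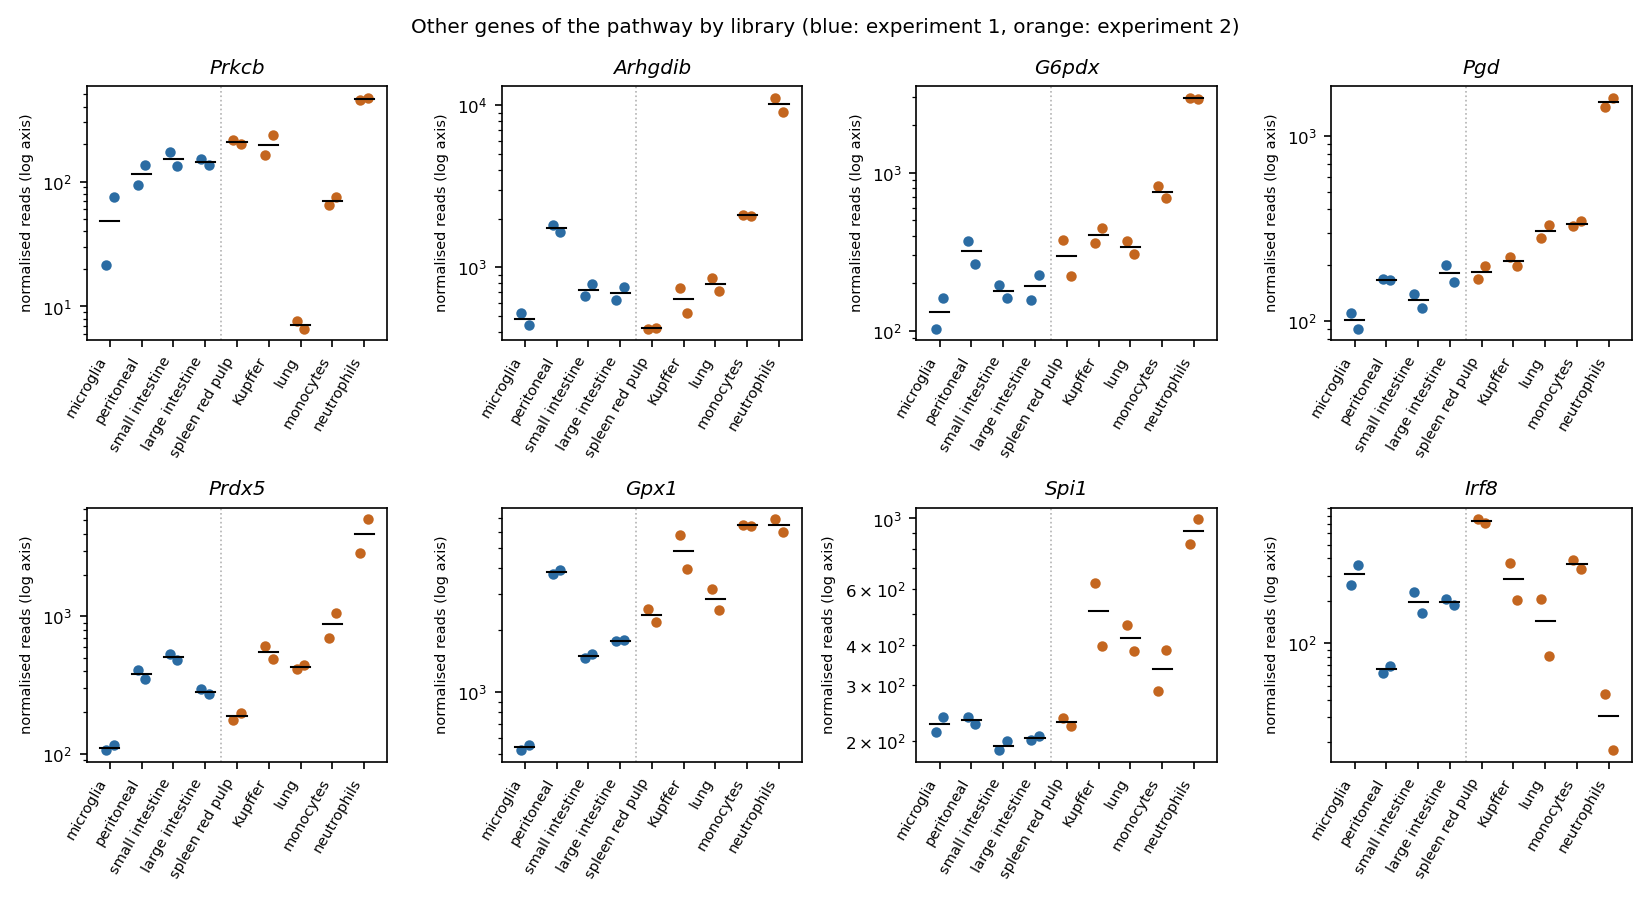
Normalised reads (log axis) of named genes of the pathway lists in each library, by population; points are libraries and short lines are means of 2. Microglia are low for Gpx1 (523 and 555) and Prdx5 (106 and 115), while Spi1 there (213 and 237) lies within the range of experiment 1.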

How the data were processed

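Messenger RNA of sorted cells was measured in 18 libraries of 9 populations. Per the labels' protocols, polyA RNA was reverse transcribed with indexed primers, pooled and amplified linearly by in vitro transcription, so amplification may distort levels between genes. Per the submitters' processing notes, TopHat and build mm9 were used for alignment. The TopHat version, counter, annotation and normalization tool were not given in the sources used here. In the deposited table each RefSeq transcript has 1 signal value for each library, called normalised reads here. Within each library 86.6% to 88.9% of values above 0 were whole multiples of 1 step (tolerance 0.01 read), taken as 1 read; the rest were not whole, so no count model was used. Of 20814 transcripts, 20372 (97.9%) were matched to a symbol, and 235 have none in the deposited data.

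A pseudocount of 1.11 was added before taking log2, for genes at 5.53 or more normalised reads in at least 2 libraries, so fold changes of low genes are understated. The limma package (3.58.1, R 4.3.3) fitted 1 factor for the 9 populations, leaving 9 residual degrees of freedom, and moderated the variances by empirical Bayes with a mean-variance trend. The p-values were adjusted by Benjamini-Hochberg over 12014 genes within each of the 10 comparisons, the 3 F tests and the 36 pairs. Called means an adjusted p under 0.05 and an absolute log2 difference of at least 1 (F tests, adjusted p only), and rose, fell, higher and lower in a comparison are used for called genes. Tests were two-sided, and the fit was tested on simulated data. Tables and plots used Python 3.11.15, pandas 2.3.3, scipy 1.17.1 and matplotlib 3.10.9. Intervals and limits at low reads cover counting error only.

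The members and lists were chosen with earlier results of these data known. Named were all members, up to 4 genes per list with the smallest F test p and up to 2 others, and the 3 named genes most correlated with each member; a few items that these rules name are not reported here. Alternatives were other pseudocounts, no filter, equal library totals, quantile normalization, the mean of a symbol's rows, no trend, each experiment alone, a replicate block and leaving out each library.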

Additional observations from a re-analysis of the deposited data

How the results depend on the processing

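Of 70 member differences (7 genes in 10 comparisons) under 1890 alternatives in all, 55 kept their call throughout, and 42 of these also kept their direction. The other 13 were not called and changed sign, under 28 alternatives in all, and no called value changed sign. Without a mean-variance trend 3 members instead of 5 passed among the populations of experiment 1, and Kupffer cells had 1 member called instead of 2, as with experiment 2 alone. Of the pathway genes named with a call, scaling also ended that of Spi1 (against macrophages) in neutrophils, and of Rhog in neutrophils under quantile normalization. With equal library totals neutrophils against macrophages had 4 members called instead of 7; the cause was not tested beyond the shift of the median of all genes. The share of higher among called genes moved from 48.2% to 17.4% (neutrophils against monocytes) and from 40.8% to 17.9% (against macrophages) with equal totals. For peritoneal macrophages it moved from 32.8% to 43.7% with equal totals and 45.8% under quantile normalization (median shifts 0.19 and 0.22). Under quantile normalization it moved from 77.5% to 63.9% in the small intestine (shift -0.16) and from 77.1% to 66.4% in the large intestine (shift -0.12). Quantile normalization shifted the median by 0.21 for neutrophils and 0.14 for monocytes against macrophages, and equal totals by -0.14 in the large intestine.

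Same-numbered libraries did not deviate together over all genes (14 pairs, r from -0.04 to 0.01). With 2 libraries for each population, whose deviations mirror each other, this cannot tell whether same-numbered libraries shared an animal or a day. What the number stands for is not known. With that number as a replicate block (16 libraries, 4 residual degrees of freedom) small intestine macrophages had 122 genes called instead of 968 and 0 members instead of 1 (Cybb, adjusted p = 0.242), spleen macrophages 1 member instead of 2 (Cybb, adjusted p = 0.0517), Kupffer cells 1 instead of 2 (Ncf4, adjusted p = 0.0808), and neutrophils against macrophages 3079 genes instead of 4659.

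Leaving out each library in turn, called genes ranged from 7280 to 8225 among 9 populations (members 7), 3370 to 4530 in experiment 1 (members 3 to 6) and 5080 to 6427 in experiment 2 (members 7). They ranged from 1892 (without microglia replicate 2) to 3214 for microglia (members 2 to 3), 1532 (without peritoneal replicate 1) to 2713 for peritoneal macrophages (members 1 to 2), 344 (without small intestine replicate 3) to 1068 for the small intestine (members 1) and 445 (without large intestine replicate 2) to 1227 for the large intestine (members 0 to 1). They ranged from 504 (without spleen replicate 2) to 1352 for the spleen (members 2), 731 (without Kupffer replicate 2) to 1296 for Kupffer cells (members 1 to 3) and 1273 (without lung replicate 2) to 2330 for the lung (members 1 to 2). They ranged from 1772 (without monocyte replicate 2) to 2950 for neutrophils against monocytes (members 6), 3052 (without neutrophil replicate 3) to 4702 for neutrophils against macrophages (members 7) and 1191 (without monocyte replicate 2) to 2468 for monocytes (members 2 to 3). Neighbouring pairs called ranged from 6 to 8. A left-out library leaves 1 sample in its population, assumed to vary like the others.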
